A study of Ictidomys tridecemlineatus with 31 samples.

Results

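Histone and DNA modifying enzymes write, erase or exchange the small chemical marks that chromatin carries. Lysine and arginine methyltransferases, acetyltransferases and DNA methyltransferases add marks, and they are called writers. Demethylases, deacetylases, sirtuins and the TET dioxygenases that oxidize methylated cytosine remove them, and they are called erasers. Many of these enzymes also act on proteins outside chromatin, and several sirtuins work in mitochondria. The genes described here were every row of the kidney table whose symbol begins with one of 13 family names (Kmt, Setd, Smyd, Ehmt, Nsd, Ezh, Prmt, Kat, Dnmt, Kdm, Hdac, Sirt, Tet) followed by a digit. They were 81 of 12863 genes. Of these, 45 were counted as writers and 35 as erasers, by family name alone. The remaining row, KMT2E-AS1, is an antisense RNA and not an enzyme. It matched by its name. The libraries were strand-specific, but whether strand was used when reads were assigned is not given in the sources used here, so its values are uncertain beside those of Kmt2e. A current RefSeq annotation holds 86 symbols that fit the same naming rule. Of these, 80 had a row, while Dnmt3b, Dnmt3l, Prmt8, Sirt4, Smyd1 and Tet1 were not analysed here.

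Poly(A) RNA was sequenced from kidney fragments of 31 13-lined ground squirrels (Ictidomys tridecemlineatus) of both sexes, obtained from a captive colony or a commercial supplier and perfused before dissection. The animals carried implanted temperature devices, no drug treatment or genetic change is described for them, and they fell into 6 physiological states. Each value is from 1 piece of 1 kidney, and the pieces may differ in how much cortex and medulla they hold. Summer active (SA, 5 animals) squirrels were fattening and warm. Spring dark (SpD, 5) squirrels were warm again after hibernation but still housed in the dark hibernaculum. The other 4 states came from the torpor-arousal cycle of winter. Interbout aroused (IBA, 5) animals had just rewarmed, entrance (Ent, 5) animals were cooling into torpor, and EAr (5) and later arousing (LAr, 6) animals were at an earlier and a later stage of rewarming. The LAr animal K113 and the SA animal K137 were left out by the study, so 29 animals entered the tests, and these animals are shown apart. Levels are on the study's regularized log2 scale, on which a difference of 1 is a doubling that is shrunken for weakly expressed genes. Levels are not per transcript length and are compared only within a gene. Read depth is unknown, since the table holds no counts. Differences are hibernation states minus active states, or the first state minus the second, each with its SE and with q, the Benjamini-Hochberg adjusted p over all 12863 genes from limma with state, sex and experiment in the model. Among the 81 genes, comparisons of IBA or Ent or SpD with SA, EAr or LAr therefore depart from the plain difference of the group means, by up to 0.24 (Setd7, EAr minus Ent) and by a median of 0.036 for IBA minus SA, while the other comparisons depart less.

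Kidney cell markers were well above the floor of the table in every state, and Star and Cyp11a1, which define adrenal cortex, had no row. The markers also moved with state. The mean log2 level of the 3 proximal tubule markers ranged from 15.44 to 15.75 in SA, from 14.41 to 15.15 in IBA, from 14.65 to 15.49 in Ent, from 15.26 to 15.51 in EAr, from 15.04 to 15.33 in LAr and from 13.99 to 15.77 in SpD. That of the 2 podocyte markers ranged from 11.84 to 12.37 in SA and from 9.94 to 11.71 in IBA. Of 19 marker genes measured, 5 differed across states at q under 0.05 (2 of proximal tubule and 1 each of podocytes, principal cells and intercalated cells). In bulk RNA, fewer cells of a type and less RNA per cell cannot be told apart, and the part of cell makeup in the results below was not tested. Of 81 genes, 80 reached the study's minimum level of 7 in at least 4 animals of every state. The exception was Ezh2, which reached it in 0 SA and 1 SpD animals and so entered the table through the hibernation states.

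**Figure D1:**
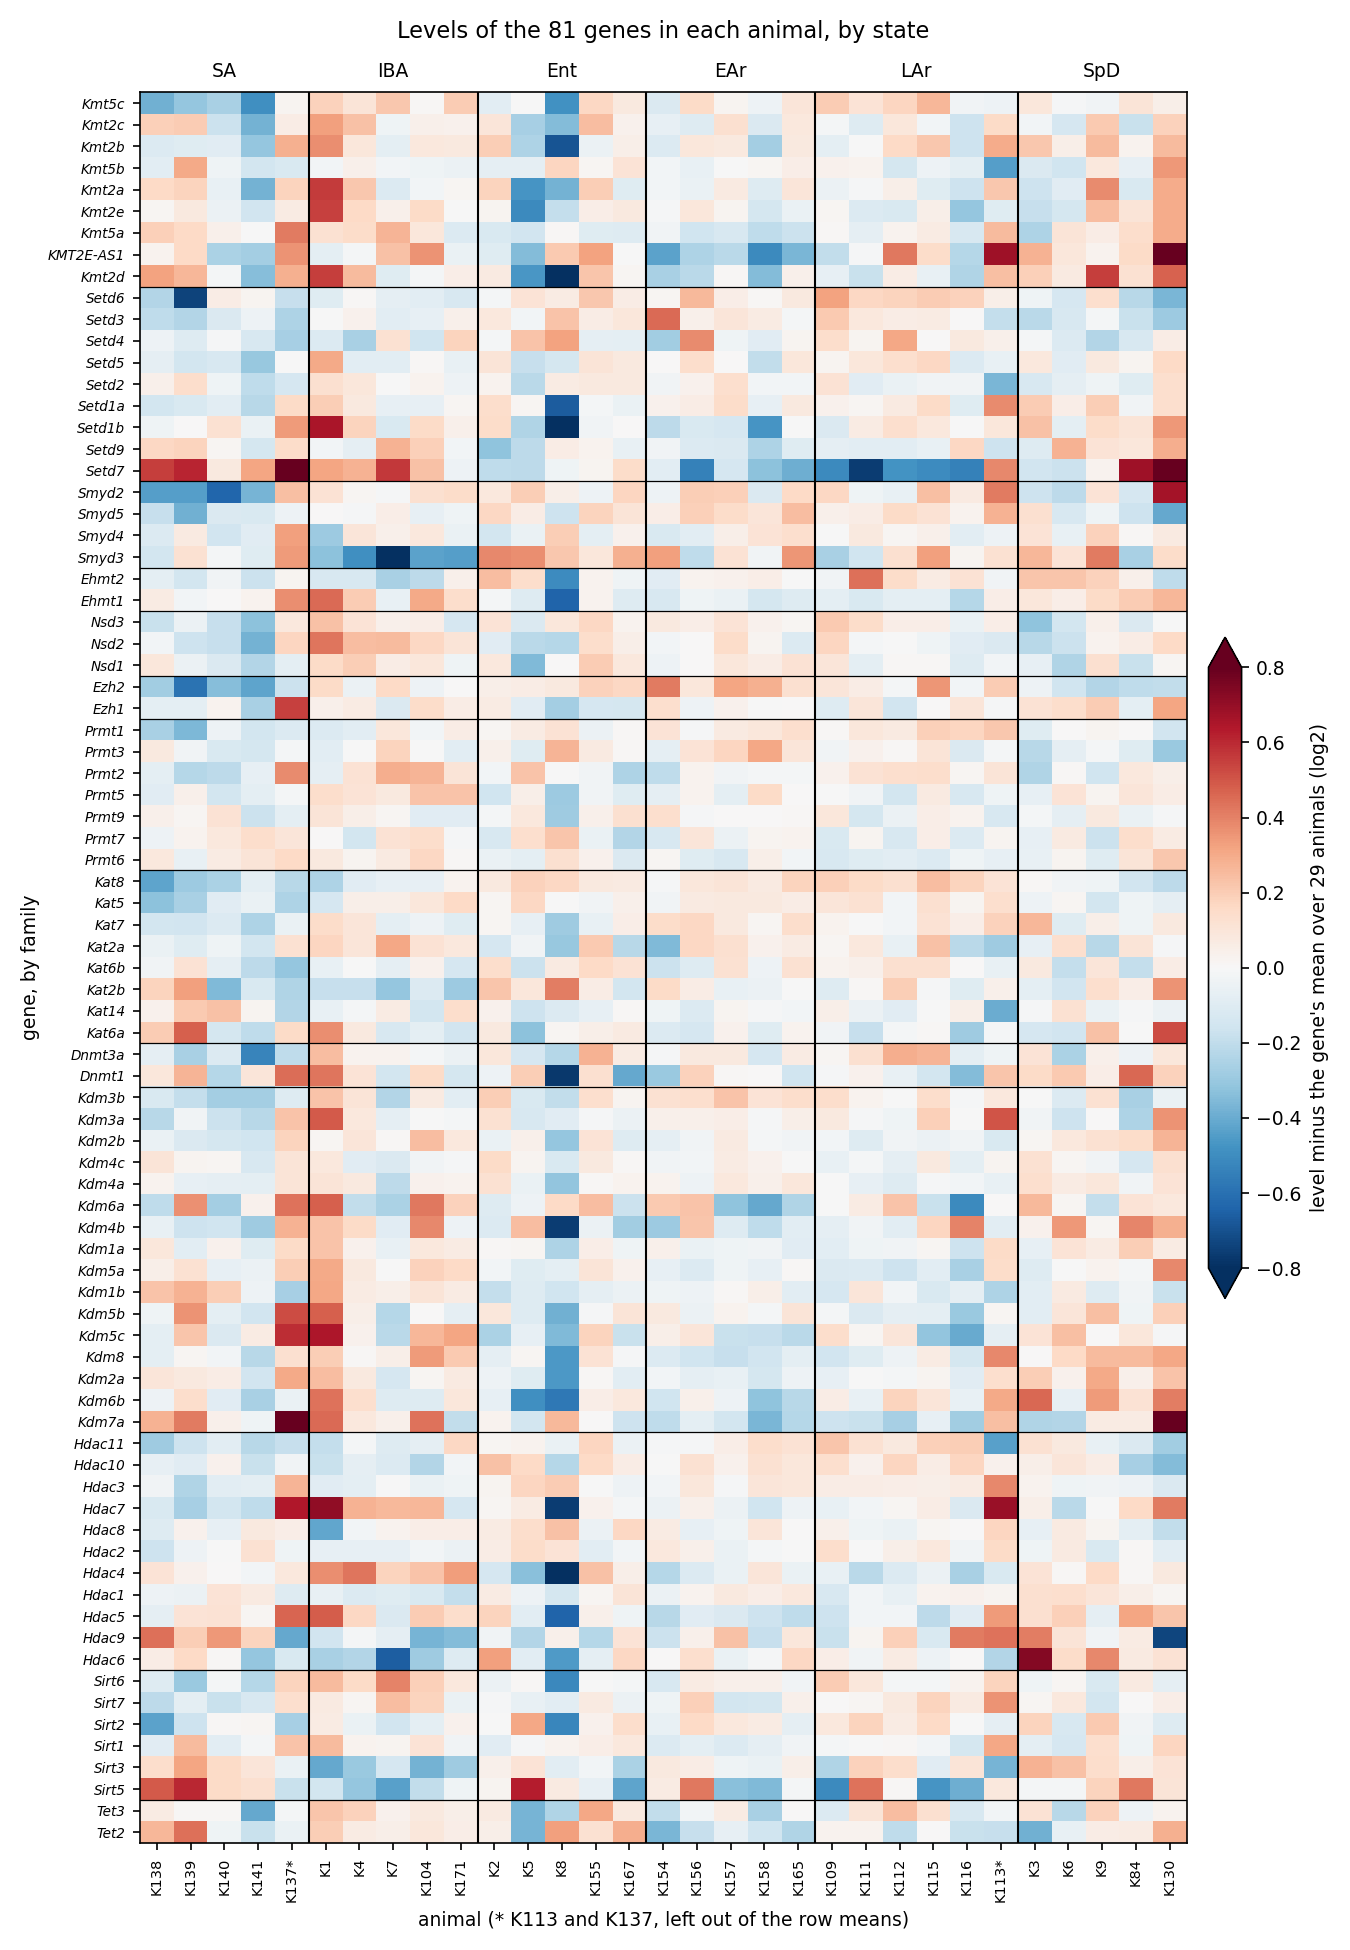
Each row is one of the 81 genes, grouped by family, and each column is an animal, grouped by state. Color gives the log2 level minus the gene's mean over 29 animals, cut at 0.8 either way. Rows such as Smyd3 (low in IBA), Setd7 (low in LAr) and Smyd2 (low in SA) change with state. Single animals, such as K141, K8, K7 and K1, lie outside the others of their state in many rows.

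Differences among the 6 states were widespread but small. At q under 0.05 in the F test over states, 37 of 81 genes (45.7%) differed, beside 46.1% of all genes. At q under 0.001, the threshold of the study, 6 of 81 genes differed, beside 9.34% of all genes. These counts, and the family counts below, hold Ezh2, which entered the table through the hibernation states. The distance between the highest and the lowest state mean had a median of 0.28 on the log2 scale (0.26 for writers, 0.29 for erasers), beside 0.32 for all genes, and it ran from 0.042 for Prmt9 to 0.95 for Setd7. No member reached 1, while 592 of 12863 genes did. The lowest of the 6 means fell in SA for 29 of 81 genes (35.8%, beside 25.7% of all genes), and it fell there for 19 of 45 writers and 10 of 35 erasers. The highest mean fell in IBA for 24 genes (29.6%, beside 20.5% of all genes). It fell in SpD for 19 genes (23.5%, beside 16.5%). The lowest mean fell in SpD for 0 of 35 erasers and 5 of 45 writers, beside 16.3% of all genes. These counts describe the means and were not tested. Among the SA animals tested, K141 was below the other 3 for 47 of 81 genes, beside 27.9% of all genes. It was above them for 10, beside 25.6% of all genes.

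By family, the F test called 8 of 16 Kdm demethylases, 7 of 11 Hdac deacetylases and 3 of 6 sirtuins. Among writers it called 2 of 8 Kmt, 3 of 9 Setd and 3 of 4 Smyd genes. It called 1 of 2 Ehmt, 2 of 3 Nsd and 2 of 2 Ezh genes. Most but not all genes of these families are lysine methyltransferases. The F test also called 2 of 7 Prmt arginine methyltransferases and 3 of 8 Kat acetyltransferases. It called 0 of 2 Dnmt and 0 of 2 Tet genes, with 1 of each at an unadjusted p under 0.05 in limma.

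The 6 genes that passed the study's threshold had different shapes across the year. They were the acetyltransferase Kat8, the deacetylase Sirt3 and the methyltransferases Smyd3, Setd7, Kmt5c and Ezh2. The pass of Ezh2 is not read as a result, since it met the table's minimum only through the hibernation states. The values of the 6 genes in each animal are given next, before the family-wide comparisons.

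Kat8, the acetyltransferase of histone H4 in the MSL and NSL complexes, was highest while the animals cooled or rewarmed. The SA animals read 10.05, 10.18, 10.21 and 10.39, the IBA animals 10.22, 10.38, 10.40, 10.40 and 10.50, and the SpD animals 10.26, 10.31, 10.43, 10.44 and 10.48. The Ent animals read 10.54, 10.54, 10.55, 10.63 and 10.65, the EAr animals 10.46, 10.54, 10.56, 10.57 and 10.64, and the LAr animals 10.59, 10.62, 10.65, 10.66 and 10.72. Every Ent and LAr animal was above every SA, IBA and SpD animal, and 1 EAr animal overlapped them. Kat8 rose from IBA to Ent by 0.20 ± 0.060 (q = 0.028) and was lower in IBA than in LAr, with a difference of -0.29 ± 0.067 (q = 0.0052). The difference between IBA and SA was 0.15 (q = 0.14).

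Sirt3, the main deacetylase of the mitochondrial matrix, was lowest in IBA. The IBA animals read 9.69, 9.73, 9.81, 9.82 and 9.97, all below the SA animals (10.21, 10.25, 10.26 and 10.42) and the SpD animals (10.16, 10.22, 10.25, 10.34 and 10.39). The Ent animals read 9.86, 10.02, 10.08, 10.15 and 10.22, the EAr animals 10.06, 10.07, 10.16, 10.17 and 10.19, and the LAr animals 9.86, 10.02, 10.21, 10.25 and 10.29, so that Ent and LAr each overlapped IBA by 1 animal. IBA minus SA was -0.55 ± 0.086 (q = 1.1e-04), IBA minus LAr was -0.39 ± 0.082 (q = 0.0025), and SpD minus IBA was 0.46 ± 0.073 (q = 3.0e-04). The rise from IBA to Ent was 0.26 ± 0.073 (q = 0.021), and its q was 0.084 without the IBA animal K1.

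Smyd3, a lysine methyltransferase that acts on cytoplasmic kinases as well as on histones, had its minimum in IBA. The IBA animals read 7.37, 7.68, 7.73, 7.74 and 7.85, and all 24 other animals read 7.91 or more. The Ent animals read 8.26, 8.39, 8.45, 8.54 and 8.56. From IBA to Ent, Smyd3 rose by 0.77 ± 0.12 (q = 4.9e-04), the largest rise among the 81 genes in that comparison. IBA minus SA was -0.52 ± 0.15 (q = 0.012), IBA minus LAr was -0.58 ± 0.14 (q = 0.0068) and SpD minus IBA was 0.63 ± 0.12 (q = 0.0018). The seasonal difference was -0.075 ± 0.079 (q = 0.49), where IBA is averaged with Ent, EAr and LAr. Within experiment 2, which holds 2 IBA animals, IBA minus LAr was -0.39 (q = 0.14).

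Setd7, which monomethylates histone H3 and several transcription factors, was lowest in LAr. The LAr animals read 7.84, 8.05, 8.08, 8.09 and 8.12, below the IBA animals (8.56, 8.83, 8.87, 8.91 and 9.16) and the SA animals (8.67, 8.91, 9.15 and 9.20). The Ent animals read 8.38, 8.39, 8.56, 8.61 and 8.74 and the EAr animals 8.06, 8.21, 8.26, 8.46 and 8.51. The SpD animals were spread from 8.42 to 9.84, and the highest was K130. IBA minus LAr was 1.04 ± 0.19 (q = 7.8e-04), the largest difference of the 81 genes in the 8 comparisons. The plain difference of the group means was 0.83, and within experiment 2 the value was 0.68 (q = 0.024). The seasonal difference was -0.52 ± 0.11 (q = 6.8e-04), and it was -0.42 (q = 0.0011) without K130.

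Kmt5c, which trimethylates histone H4 in heterochromatin, was low in summer. The SA animals read 8.70, 8.81, 8.88 and 8.93. All other animals read 9.07 or more except the Ent animal K8 at 8.71. IBA minus SA was 0.57 ± 0.10 (q = 3.9e-04) and SA minus SpD was -0.47 ± 0.10 (q = 0.0083). The IBA animals read 9.20, 9.29, 9.38, 9.39 and 9.41 and the SpD animals 9.17, 9.18, 9.24, 9.28 and 9.30.

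Ezh2, the catalytic subunit of the Polycomb repressive complex that methylates histone H3 on chromatin to be silenced, is given as values with no test. It met the table's minimum level only through the hibernation states, so that a gene with its level had to be higher there to be in the table. The SA animals read 6.53, 6.69, 6.77 and 6.84, and the SpD animals 6.88, 6.91, 6.92, 6.95 and 7.07. The IBA animals read 7.07, 7.07, 7.12, 7.27 and 7.27, the Ent animals 7.16, 7.17, 7.19, 7.28 and 7.30, the EAr animals 7.21, 7.24, 7.40, 7.43 and 7.53, and the LAr animals 7.09, 7.10, 7.17, 7.21 and 7.47. The highest SpD animal was level with the lowest of the 20 hibernating animals, and the other 8 active animals were all below them. The table's minimum favours this order, so it is not read as a result.

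**Figure D2:**
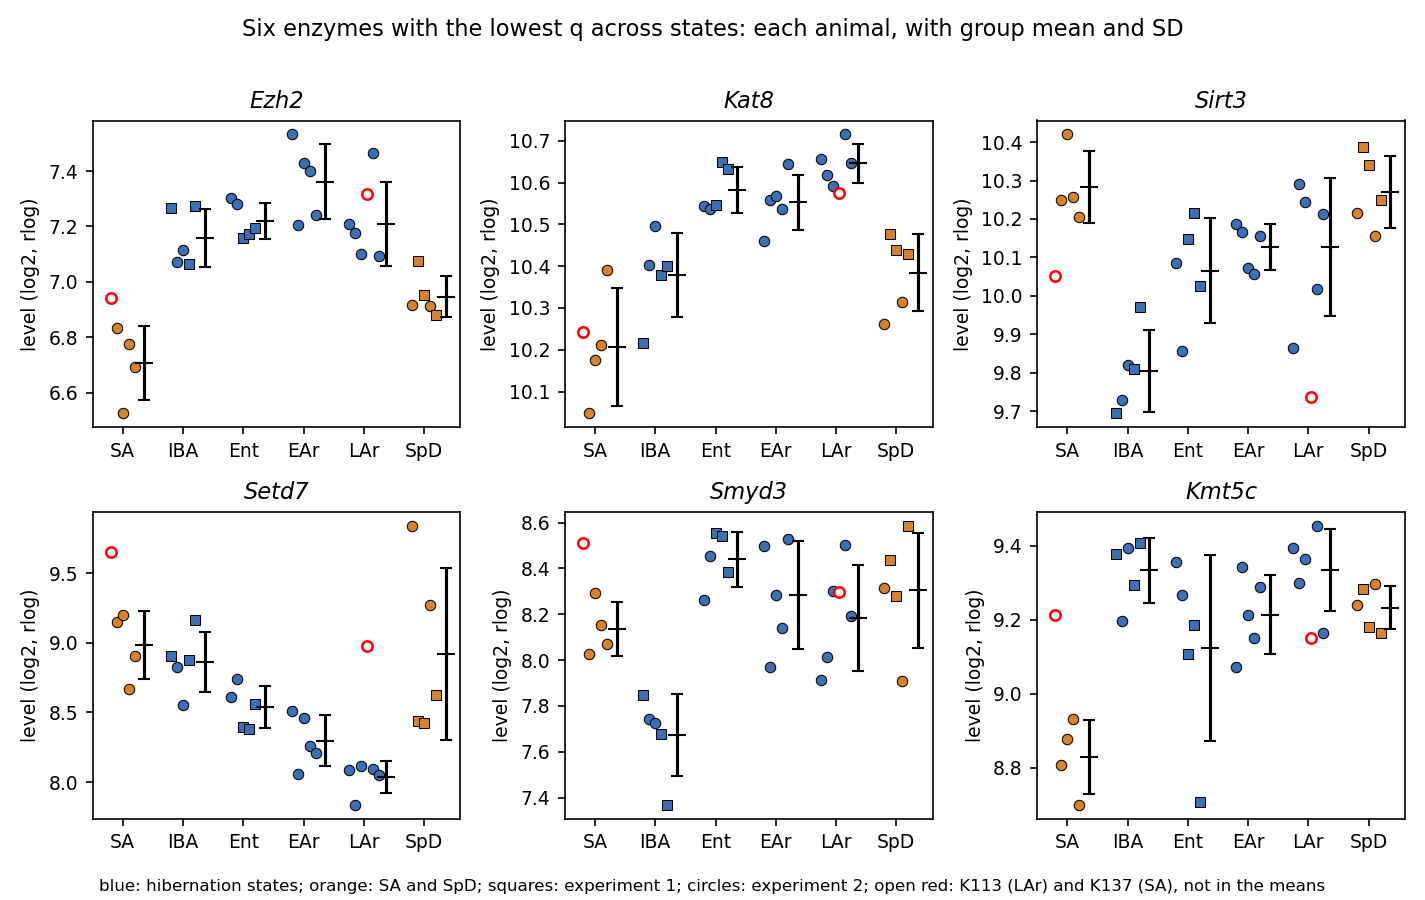
Each panel plots the log2 level of 1 gene in each of 31 animals by state, with the mean and SD of the 29 tested animals at the right of each state. Smyd3 and Sirt3 are lowest in IBA, Setd7 in LAr, and Ezh2 and Kmt5c in SA, and Kat8 is highest in Ent, EAr and LAr. K137 (SA) and K113 (LAr) are the open marks.

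The comparison of hibernation with the active seasons asked which enzymes change with the time of year. At q under 0.05, 22 of 81 genes (27.2%) differed, beside 33.4% of all genes. Of these, 17 were higher in hibernation (16.6% of all genes were) and 5 were lower (16.8% of all genes were). The median difference over the 81 genes was -0.014, beside 0.00024 for all genes. Among writers, 14 of 45 were higher and 1 was lower (Setd7). Among erasers, 3 of 35 were higher and 4 were lower. Ezh2 is among the genes that were higher. Without it, 16 of 80 genes and 13 of 44 writers were higher. Whether writers differ from erasers in this was not tested. After each animal was centred to a common median the writers were again 14 higher and 1 lower, and the erasers were 5 higher and 3 lower. With all 31 animals the writers were 12 higher and 4 lower, and the erasers 1 higher and 2 lower.

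Ezh2 apart, the largest seasonal rises among the genes called were in lysine methyltransferases. Smyd2, which methylates p53 and other proteins, rose by 0.29 ± 0.069 (q = 0.0022, and 0.087 within experiment 2), and Setd6, which methylates the RelA subunit of NF-kB, rose by 0.25 ± 0.068 (q = 0.0067). Kat8 rose by 0.24 ± 0.038 (q = 4.4e-05) and Kmt5c by 0.22 ± 0.055 (q = 0.0032). As given above, Kat8 was highest in Ent, EAr and LAr and did not pass between IBA and SA. Kmt5c was low in SA and not in SpD, so neither average separates the seasons as such. The SA animals read 9.28, 9.47, 9.47 and 9.54 for Smyd2, below all 25 other animals, while the SpD animals were spread from 9.70 to 10.58. Sirt5, the mitochondrial desuccinylase, was lower in hibernation, with a difference of -0.34 ± 0.10 (q = 0.013), and Sirt3 had one of -0.25 ± 0.047 (q = 3.2e-04). These 2 mitochondrial sirtuins were the lowest of 6 Sirt genes in the seasonal comparison, and the other 4 did not pass the test. After centring, Sirt6 and Sirt7 were higher (q = 0.034 and 0.038). The Sirt5 call was lost with all 31 animals (q = 0.070), with animal weights (q = 0.071) and without K1, K8 and K130 (q = 0.052). Kdm2a and Hdac1, named after their values were seen, were the other erasers that fell, by 0.14 and 0.081 on the log2 scale. For Kdm2a, q was 0.059 without K130, and for Hdac1 it was 0.079 after centring and 0.070 with all 31 animals. Slc34a1, the phosphate transporter and 1 of the 3 proximal tubule markers, was also lower in hibernation, with a difference of -0.85 (q = 0.0016). The other markers are not given singly, so this value does not stand for the 3. The mean of all 3 markers was 15.61 in SA and 15.16 in SpD. It was 14.83 in IBA, 15.09 in Ent, 15.40 in EAr and 15.18 in LAr, so that EAr and LAr lay above SpD. The part of these markers in the sirtuin values was not tested. The 3 arginine methyltransferases that passed, of 7, were all higher, and so were both acetyltransferases, of 8.

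**Figure D3:**
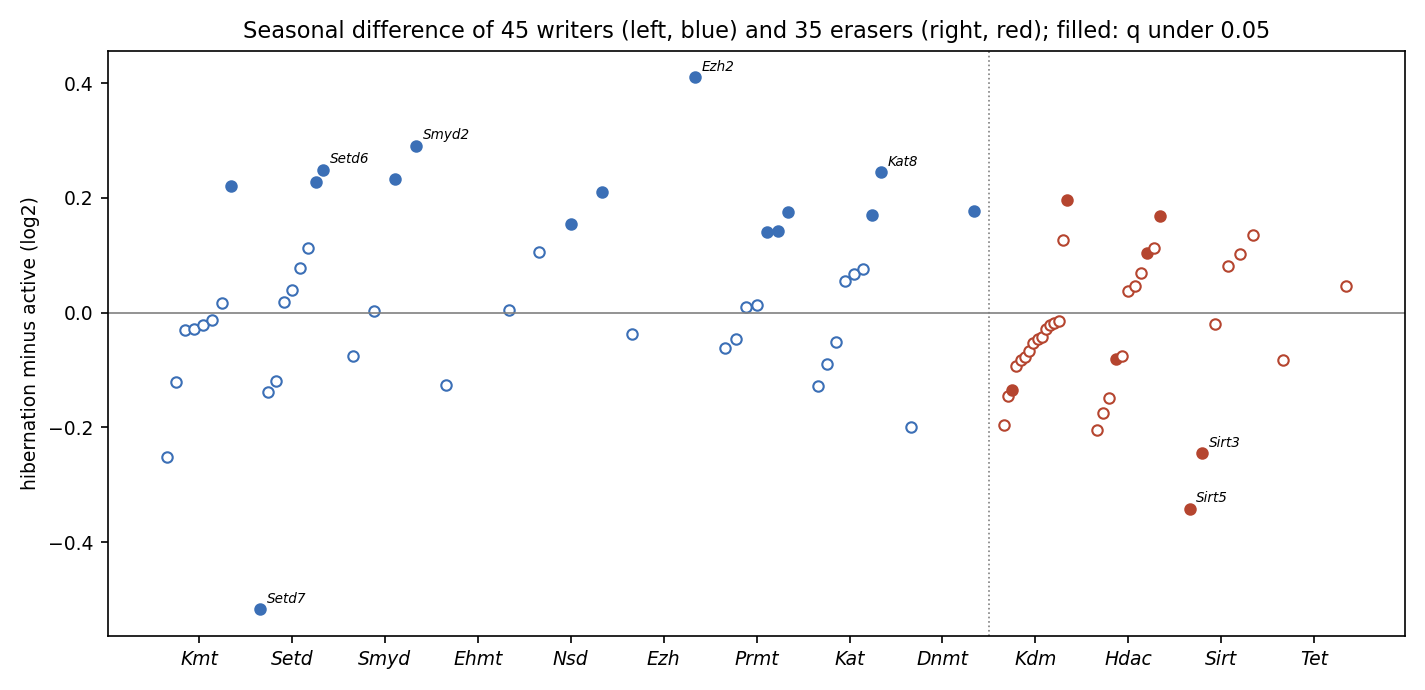
Each point is 1 enzyme, placed by family, and its height is the seasonal difference (mean of IBA, Ent, EAr and LAr minus mean of SA and SpD) on the log2 scale. Filled points passed q under 0.05. Filled writers lie above 0 except Setd7 at -0.52, and filled erasers lie on both sides of 0.

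The small families differed among their members. Of the DNA methyltransferases, the de novo enzyme Dnmt3a, with state means from 10.67 in SA to 11.03 in LAr, was higher in hibernation by 0.18 ± 0.062 (q = 0.030), and its q was 0.11, 0.070 and 0.054 without the SA animal K141 and the SpD animals K6 and K84, and 0.065 within experiment 2. The maintenance enzyme Dnmt1, with means from 9.29 in Ent to 9.68 in SpD, had a difference of -0.20 ± 0.091 (q = 0.097). Tet2 and Tet3, which start the removal of cytosine methylation, had seasonal differences of -0.082 ± 0.074 (q = 0.42) and 0.046 ± 0.070 (q = 0.64), and neither passed the F test (q = 0.072 and 0.36). Nsd2 and Nsd3, which dimethylate histone H3 in gene bodies, rose with the hibernation season by 0.15 ± 0.051 (q = 0.021) and 0.21 ± 0.047 (q = 0.0016), and the value for Nsd1 was 0.11 ± 0.050 (q = 0.11). For Nsd2, q was 0.069 without K141, 0.13 with all 31 animals and 0.16 within experiment 2. Ezh1, the other catalytic subunit of the Polycomb complex, had a seasonal difference of -0.037 ± 0.046 (q = 0.55). Its F test (q = 0.042) lost its call when any of 16 animals was left out, with q up to 0.11. Ehmt1 and Ehmt2, partners that methylate histone H3 in euchromatin, had seasonal differences of -0.13 ± 0.058 (q = 0.092) and 0.0040 ± 0.069 (q = 0.97).

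The comparison of IBA with SA set the warm state of winter against the warm state of summer. In it, 16 genes were higher in IBA (10.4% of all genes were) and 4 were lower (12.5% of all genes were). The median over the 81 genes was 0.15, beside 0.029 for all genes. The largest rises were in Smyd2 (0.65 ± 0.13, q = 9.4e-04), Kmt5c and Hdac7, a class IIa deacetylase that leaves the nucleus when phosphorylated (0.52 ± 0.16, q = 0.022). For Hdac7, q was 0.0504 without the SA animal K139. Sirt5 (-0.63 ± 0.19, q = 0.019), Hdac9 (-0.63 ± 0.16, q = 0.0084), Sirt3 and Smyd3 fell, and these were the only 4 that did. For Sirt5, q was 0.055, 0.061 and 0.054 without K104 (IBA), K138 or K139 (SA). Nsd2 also rose, by 0.50 ± 0.094 (q = 6.5e-04), and Dnmt3a by 0.34 ± 0.11 (q = 0.035). Ezh2 is counted among the 16, although 0 of 4 SA animals reached the table's minimum for it. The IBA animals read 10.36, 10.42, 10.50, 10.51 and 10.68 for Nsd2 and the SA animals 9.88, 10.07, 10.09 and 10.23, with no overlap. Of the 16 Kdm demethylases, 14 had positive differences (14 after centring, 13 without K130) and 3 passed the test. All 8 Kmt genes were positive too (6 after centring), as were 64 of the 81 genes, so these signs are not particular to Kdm. Over all genes, 7015 of 12863 differences were positive. All SA animals and 2 of the IBA animals were sequenced in experiment 2. Within it 15 genes were higher and 2 lower, beside 2503 of 12863 genes called in either direction. The differences were 0.67 for Smyd2, 0.46 for Kmt5c, 0.27 for Hdac7 (q = 0.070), -0.62 for Sirt5 (q = 0.053), -0.62 for Hdac9 and -0.54 for Sirt3.

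Between IBA and Ent, as the animals left the warm interval and cooled, 4 genes rose (5.52% of all genes did) and 9 fell (7.61% of all genes did). With each animal centred to a common median these counts were 6 and 7. The median over the 81 genes was -0.071, beside -0.0051 for all genes. The rises were Smyd3, Kat2b (0.35 ± 0.11, q = 0.043), Sirt3 and Kat8. Kat2b is a coactivator acetyltransferase, and its call was lost when any of 13 animals was left out, with q up to 0.12. The largest falls were in Hdac4 (-0.50 ± 0.11, q = 0.0042), Hdac7 (-0.41 ± 0.14, q = 0.048) and Ehmt1 (-0.38 ± 0.090, q = 0.0093), and Nsd2 fell by 0.31 on the log2 scale (q = 0.015). The Hdac7 call was lost when any of 24 animals was left out, with q up to 0.19.

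Hdac4, like Hdac7 a class IIa deacetylase that shuttles between nucleus and cytoplasm, read 9.93, 9.99, 10.09, 10.13 and 10.19 in IBA and 8.96, 9.42, 9.63, 9.81 and 9.99 in Ent. The groups overlapped by 1 Ent animal, and K8 was the lowest. Of 16 Kdm genes, 15 had negative differences from IBA to Ent (14 after centring), and 3 passed the test. Of 8 Kmt genes, 7 were negative too, as were 54 of the 81 genes. Over all genes, 6299 of 12863 differences were positive. All 13 genes called had the same sign within experiment 1 (3 animals against 3) and within experiment 2 (2 against 2), but some sizes differed. The pooled fit of these same animals chose the genes, so the shared sign is not separate support. For Hdac4, Ent minus IBA was -0.75 in experiment 1 and -0.14 in experiment 2, and for Hdac7 it was -0.64 and -0.058. For Smyd3 it was 0.86 and 0.62. In a fit of experiment 2 alone, 0 members passed q under 0.05 in limma and 9 had an unadjusted p under 0.05. Only 33 of 12863 genes passed in that fit, so this 0 cannot set the members apart from other genes.

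The IBA animal K1 weighed on this comparison. It was above the other 4 IBA animals for 38 genes and below them for 12, beside 25.8% and 26.9% of all genes. Without K1, 1 gene rose and 4 fell. The Ent animal K8 was below the other 4 Ent animals for 38 of 81 genes and above them for 15, so that it lay outside them for 65.4%, beside 66.7% of all genes. Without K8, 6 rose and 7 fell. Without K1, K8 and the SpD animal K130 together, 4 rose and 3 fell, while 16 genes differed between IBA and LAr (11 higher, 5 lower) and 28 differed between the seasons (20 higher, 8 lower). The calls over all genes were not counted with these animals left out, so these counts cannot set the members apart.

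From Ent to EAr, across the torpor bout, no member passed q under 0.05 in limma, and 4 had an unadjusted p under 0.05. Over all genes 0.148% were higher and 0.109% were lower. From EAr to LAr, as the animals warmed, no member passed either, and 1 had an unadjusted p under 0.05. Over all genes 0.513% were higher and 0.0622% were lower. No other tool was run for these comparisons, since the table holds no counts.

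The comparison of IBA with LAr covers the completion of rewarming. In IBA, 11 genes were higher (9.93% of all genes were) and 5 were lower (8.03% of all genes were), and after centring 9 were higher and 9 lower. The median over the 81 genes was 0.069, beside -0.0074 for all genes. Above Hdac4 (0.55 ± 0.12, q = 0.0038) and Ehmt1 (0.40 ± 0.10, q = 0.0087) stood Setd7, already described. The LAr animals read 10.38, 10.49, 10.53, 10.53 and 10.53 for Ehmt1, and the IBA animals 10.55, 10.75, 10.81, 10.91 and 11.06, with no overlap. Smyd3, Sirt3 and Hdac10, which deacetylates polyamines, were the lowest in IBA. For Hdac10 the difference was -0.30 ± 0.090 (q = 0.022), and q was 0.073 without the IBA animal K104. Of 16 Kdm genes, 15 had positive differences (14 after centring) and 4 passed. All 8 Kmt genes were positive too, as were 50 of the 81 genes. Over all genes, 6262 of 12863 differences were positive. Within experiment 2, 8 genes were higher and 1 lower in IBA, beside 963 of 12863 genes called in either direction. Nsd2 was higher in IBA by 0.30 ± 0.089 (q = 0.022). The comparisons of IBA with SA, Ent and LAr share the IBA animals, so their members are not independent sets.

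**Figure D4:**
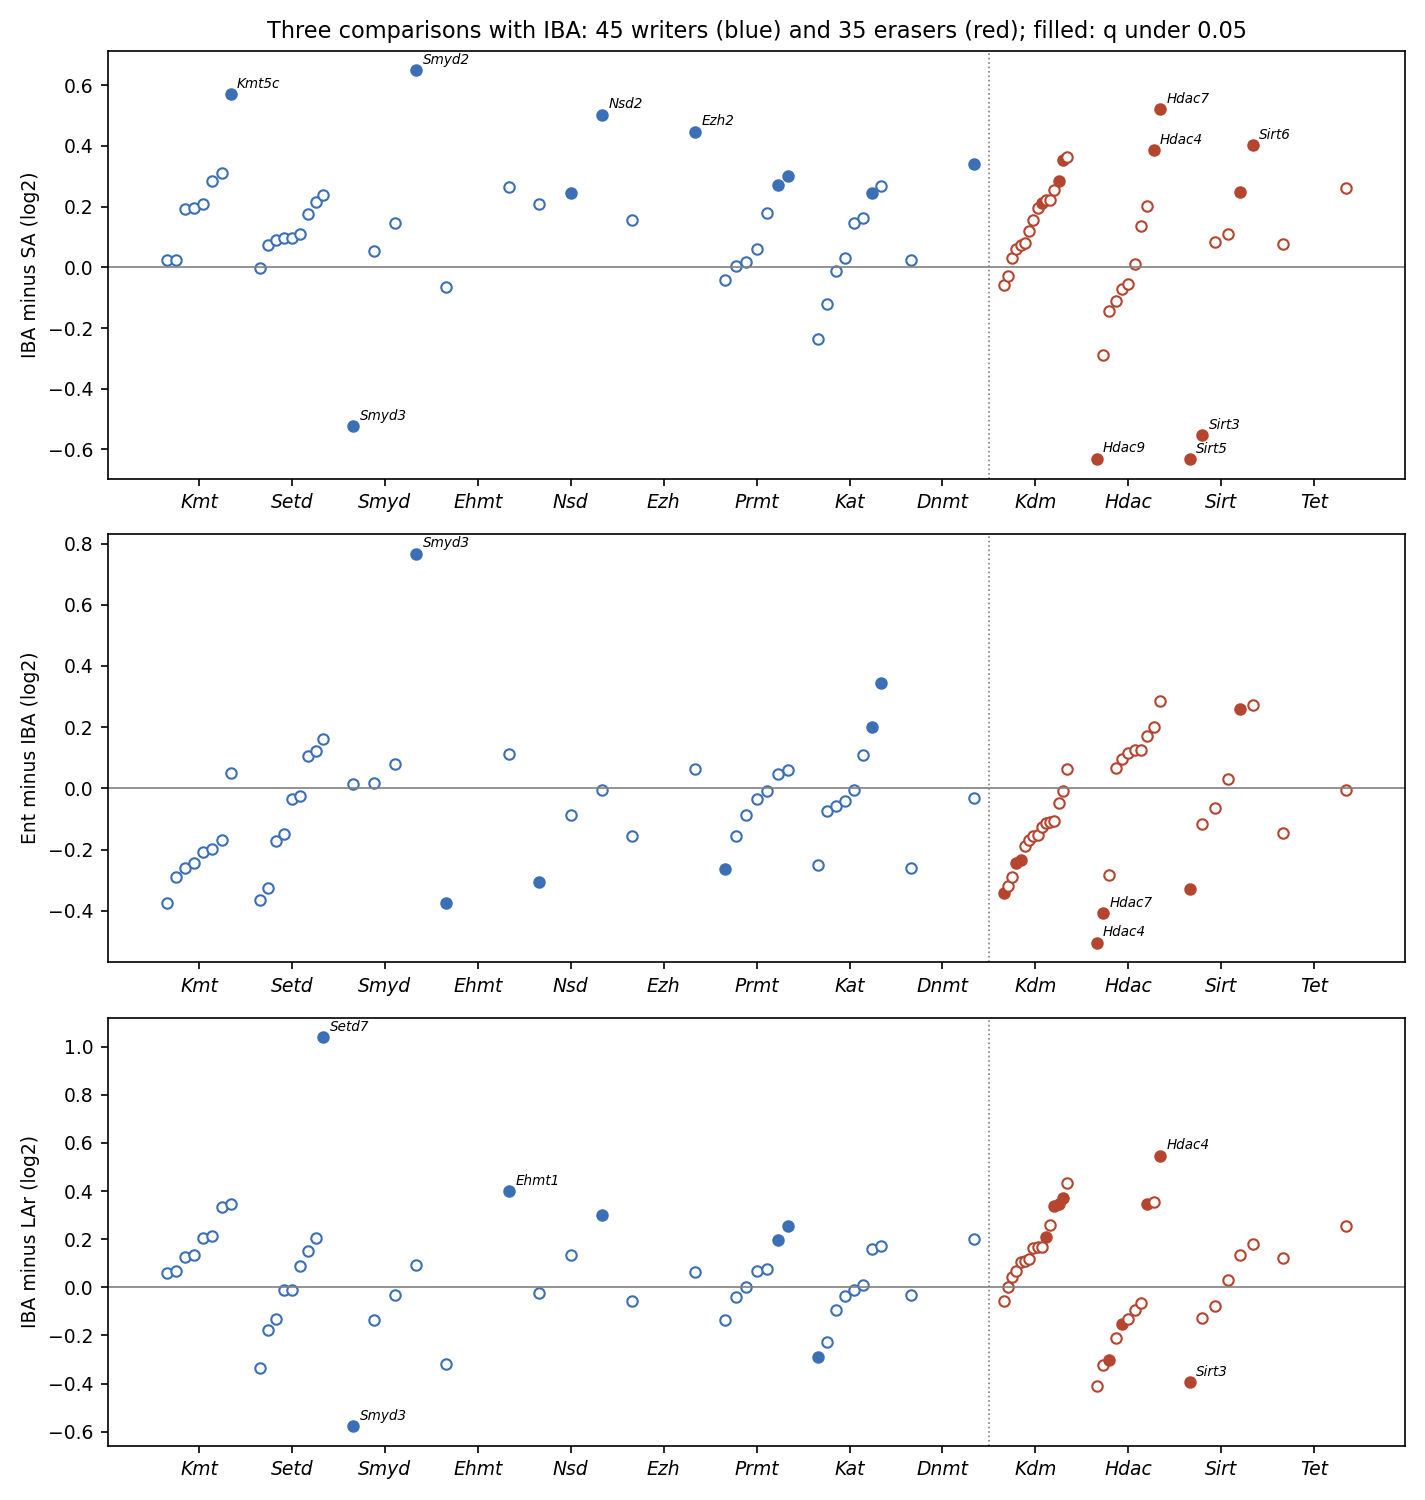
Each point is 1 enzyme, placed by family, and its height is the difference on the log2 scale for IBA minus SA (top), Ent minus IBA (middle) and IBA minus LAr (bottom). Filled points passed q under 0.05. Smyd3 is at -0.52, 0.77 and -0.58, and Hdac4 is at 0.39, -0.50 and 0.55. Most Kdm and Kmt points lie above 0, below 0 and above 0.

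The comparison of SpD with IBA spans the return to the active season. In it, 4 genes were higher in SpD (6.48% of all genes were) and 1 was lower (5.42% of all genes were). Those higher were Smyd3, Hdac6, Sirt3 and Hdac1. Hdac6, the tubulin deacetylase of the cytoplasm, read 11.24, 11.61, 11.64, 11.66 and 11.79 in IBA and 11.96, 12.01, 12.04, 12.28 and 12.63 in SpD, with no overlap (difference 0.60 ± 0.13, q = 0.0047). Hdac1, a core nuclear deacetylase, was higher by 0.20 ± 0.047 (q = 0.0073). Nsd2 was lower by -0.27 ± 0.080 (q = 0.030), and q rose as far as 0.094 when any of K1, K3, K4, K6 and K7 was left out. All 5 had the same sign within both experiments, but they were chosen by the pooled fit of these same animals. The shared sign is therefore not separate support. The Nsd2 difference was -0.43 in experiment 1 and -0.024 in experiment 2. That of Hdac6 was 0.80 and 0.29, and that of Smyd3 was 0.80 and 0.38. A fit of experiment 2 alone called 2 genes, both higher, and the calls of Smyd3 (q = 0.34), Hdac6 (q = 0.20) and Nsd2 (q = 0.89) were lost in it.

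The active states were also compared with each other. In SA against SpD, 1 gene was higher (5.47% of all genes were) and 5 were lower (5.01% of all genes were), and the median over the 81 genes was -0.13 beside -0.0054 for all genes. Smyd2 was lower in SA by -0.62 ± 0.13 (q = 0.0068), KMT2E-AS1 by -0.52 ± 0.17 (q = 0.0496), Kmt5c as given above, and Kdm8 and Kdm2b, demethylase family members, by -0.39 and -0.32. Kdm1b, a flavin-dependent demethylase of histone H3, was higher by 0.24 ± 0.075 (q = 0.043). This comparison rested on the SpD animal K130, whose proximal tubule marker mean of 13.99 was the lowest of all animals tested. Without K130, only Kmt5c remained (q = 0.039), with q of 0.066 for Smyd2 and Kdm8, 0.059 for Kdm2b, 0.20 for Kdm1b and 0.33 for KMT2E-AS1, and without the IBA animal K1 the count was 1 higher and 9 lower. With any of 13 animals left out for Kdm1b, and any of 18 for KMT2E-AS1, the call was lost.

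No difference between the sexes in the seasonal change was detected. In limma, 0 of 81 genes, and 0 of 12863, passed q under 0.05 for the interaction of season with sex. At an unadjusted p under 0.05 these numbers were 0 and 595.

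Other parts of the chromatin machinery, listed by their known roles, were read beside the enzymes. Of 65 other modifiers and partner subunits, 59 had a row. The F test called 32 of them (54.2%, beside 46.1% of all genes). Between IBA and Ent, 15 fell and 0 rose in limma (24 had an unadjusted p under 0.05), beside 7.61% of all genes that fell, with a median of -0.10 over the 59. Against LAr, 12 were higher in IBA and 1 was lower, beside 9.93% and 8.03% of all genes, with a median of 0.086. Between the seasons, 11 were higher in hibernation and 14 were lower, beside 16.6% and 16.8% of all genes. The widest differences between state means were in Riox1, a ribosomal oxygenase (7.87 in SA, 8.41 in LAr), Jmjd6, a hydroxylase of splicing proteins (9.70 in Ent, 10.22 in SA), and Dot1l, a methyltransferase of histone H3 (10.61 in Ent, 11.13 in SpD). Dot1l fell from IBA to Ent by 0.40 on the log2 scale (q = 0.042) and Jmjd6 by 0.43 (q = 0.010).

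Of 25 genes that supply or clear the cofactors of these enzymes, 21 had a row, and 12 were called by the F test, beside 46.1% of all genes. In IBA against SA, 8 were lower and 2 higher, beside 12.5% and 10.4% of all genes, with a median of -0.14 beside 0.029 for all genes. Against LAr 7 were lower and 0 higher in limma (8 had an unadjusted p under 0.05), beside 8.03% of all genes that were lower, with a median of -0.16. Ahcyl2, a relative of the hydrolase that clears the by-product of methylation, had means of 13.71 in SA and 12.70 in IBA (fitted difference -1.18 ± 0.15, q = 2.1e-05). Acss2, which makes acetyl-CoA from acetate for histone acetylation, had means of 11.85 and 11.12 (fitted difference -0.92 ± 0.12, q = 1.8e-05). Idh1, which makes the cofactor of demethylases in the cytosol, differed by -0.71 ± 0.24 (q = 0.036) in that comparison and not in the F test (q = 0.087). Slc34a1, 1 of the 3 proximal tubule markers, was lower in IBA than in SA as well, with a difference of -1.59 (q = 0.0028). The mean of the 3 proximal tubule markers was 15.61 in SA and 14.83 in IBA, and the part of these markers was not tested.

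K113 and K137, the animals left out of the tests, lay apart from their groups for many of the 81 genes. K113 was above the other 5 LAr animals for 31 genes (35.6% of all genes were) and below them for 18 (37.2% of all genes were). K137 was above the other 4 SA animals for 42 genes (33.9% of all genes were) and below them for 9 (29.5% of all genes were). After centring, K113 was above for 26 and below for 25, and K137 was above for 33 and below for 12. The median absolute difference from the group mean was 0.16 for K113 and 0.20 for K137, beside 0.23 and 0.22 over all genes.

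In both animals, 22 genes lay above the group and 5 below it. The share of all genes that did so was not counted, so whether this is particular to these enzymes is unknown. Setd7 read 8.98 in K113, beside 7.84 to 8.12 in the other LAr animals, and 9.65 in K137, beside 8.67 to 9.20 in the other SA animals. Hdac7 was 0.72 above the mean of the others in K113 and 0.83 above it in K137. Smyd2 read 10.15 in K137, beside 9.28 to 9.54 in the other SA animals, and Kmt5c read 9.21, beside 8.70 to 8.93. Sirt3 lay below the group in both, at 9.74 in K113 and 10.05 in K137. The animals differed most from each other in Hdac9 and Sirt5, which in K137 were 0.70 and 0.52 below the mean of the other SA animals. Proximal tubule markers averaged 14.15 in K113 and 14.57 in K137, below all other LAr and SA animals, and their part in these values was not tested. With K113 and K137 included, 29 genes passed the F test, all among the 37 above, and IBA minus SA called 10, all among the 20. Hdac9 (q = 0.077), Sirt5 (q = 0.11) and Hdac7 (q = 0.28) were not among those 10. Between the seasons 19 genes were called, of which 16 were among the 22 above and 3 were not.

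**Figure D5:**
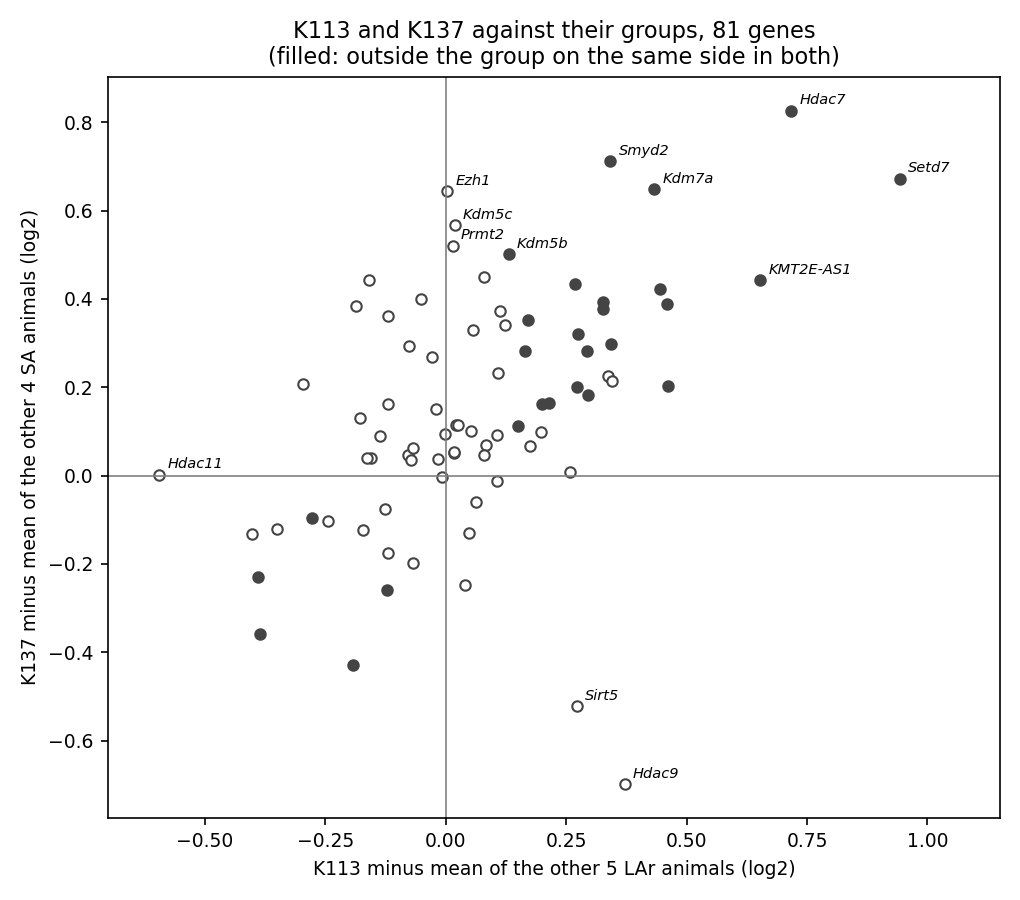
Each point is 1 of the 81 genes. The horizontal axis is K113 minus the mean of the other 5 LAr animals and the vertical axis is K137 minus the mean of the other 4 SA animals, both on the log2 scale. Setd7 (0.94 and 0.67) and Hdac7 (0.72 and 0.83) lie at the upper right, and filled points lie outside both groups on the same side.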

How the data were processed

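The values used are those deposited by the authors, 1 table of log2 expression for 12863 genes in 31 kidneys. Per the labels and the study's methods, the authors used cutadapt for trimming and HISAT2 to discard reads of mitochondrial origin, assigned the rest to transcripts of the HiC_Itri_2 genome with Salmon, summed them by gene, applied the regularized log of DESeq2 with a minimum level, and removed the difference between the 2 sequencing experiments with limma. Versions are not given in the sources used here. Experiment 1 (9 animals, 3 each of IBA, Ent and SpD) and experiment 2 (22 animals) used different library kits. SA, EAr and LAr were sequenced only in experiment 2, so for their comparisons no value within experiment 1 exists. The deposited log2 values carry no counts, so the read depth behind each value is unknown and only the spread between animals gives an error.

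From these values a linear model with state, sex and experiment was fitted to all genes in limma 3.58.1 (R 4.3.3, with an intensity trend), over 29 animals (SA 4, other states 5 each). The experiment difference that the authors had removed was fitted again as a term, so its degree of freedom is counted. It is not counted in the alternative that lacks the term. The study's own test needs counts, so limma took its place. Figures were drawn with matplotlib 3.10.9. The script was tested on simulated data. Genes named are those at q under 0.001 in the F test, the 3 largest rises and falls of each comparison at q under 0.05, and all Dnmt, Tet, Ezh, Ehmt and Nsd genes. Others are named as stated. In the cofactor and partner lists the 3 widest genes are named. The members and lists were chosen with earlier results of these data known. Animals are separate individuals, and no numbering pairs them across states. Alternatives tried were the full set of 31 animals, models lacking the experiment term, the sex term or the intensity trend, animal weights, experiment 2 only, centring to a common median, genes with a mean of at least 8, q under 0.001, fits of the compared states only and each animal left out in turn. No enzyme sequences were used here.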

Additional observations from a re-analysis of the deposited data

Results flagged for a closer look

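In 162 sets of animals of 1 state for the 27 named genes, 8 had 1 animal whose gap to its nearest neighbour was a large part of the whole range, past Dixon's critical value for the number of animals. Chance flags about 1 in 20 sets. Setd7 read 7.84 in the LAr animal K111, below 8.05 in the next. Setd6 read 9.59 in the EAr animal K156 and 9.65 in the LAr animal K109, above 9.41 and 9.53. In the IBA animal K1, Kdm1b read 10.99 and Dnmt3a read 11.16, above 10.79 and 10.94. In the Ent animal K8, Hdac7 read 9.77 and Ehmt1 read 9.97, below 10.52 and 10.50. Tet3 read 9.62 in the SA animal K141, below 10.04.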

How the results depend on the processing

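With all 31 animals, 0 members differed between SA and SpD in limma (14 at an unadjusted p under 0.05), beside 125 of 12863 genes. So few genes passed that this 0 cannot set the members apart. In that setting 10 members differed between IBA and SA and 8 between Ent and IBA, beside 1287 and 959 of all genes. Without the term for experiment, 9 differed between IBA and LAr. With animal weights the counts were 3 for SA and SpD, 26 for Ent and IBA, 26 for IBA and LAr and 13 for SpD and IBA. In experiment 2 only, they were 15, 0, 9 and 2 for the same 4 comparisons, beside 3401, 33, 963 and 968 of all genes. At q under 0.001, 6 genes differed across states, 7 between seasons, 0 between SA and SpD, 4 between IBA and SA, and 1 each between Ent and IBA, IBA and LAr, and SpD and IBA. Ezh2 is counted among the 6 and among the 7. When only the compared states were fitted, 2 genes differed between IBA and SA, 1 between Ent and IBA, 1 between IBA and LAr and 2 between SpD and IBA. Without K1, K8 and K130 together, an alternative chosen after seeing the data, 1 differed between SA and SpD and 7 between Ent and IBA. With 1 animal left out, the counts ran from 31 to 40 across states, from 19 to 26 between seasons, from 1 to 10 for SA and SpD, from 14 to 23 for IBA and SA, from 5 to 15 for Ent and IBA, from 11 to 22 for IBA and LAr and from 4 to 9 for SpD and IBA, where 9 was without the Ent animal K8. No count of all genes was taken with animal weights, without the experiment term, for the compared states only or with animals left out. The causes were not tested.

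Sign changes occurred only in seasonal differences that had not passed the test. They were Ehmt2 with all 31 animals (-0.015), Kat2b with animal weights (0.0098), and, in experiment 2 only, Smyd3 (0.034), Hdac7 (-0.048) and Hdac4 (0.021). With 1 animal left out, the seasonal value of Ehmt2 ran from -0.037 to 0.038, of Kat2b from -0.11 to 0.00065 and of Tet3 from -0.0043 to 0.070. Of the 80 values of single genes, alternatives left 633 on the same side of the threshold, took 78 out and brought 25 in. No paired analysis was possible because the labels give no replicate numbers that groups share. Of the 6 genes at q under 0.001 in the F test, Smyd3 had q of 0.16 in experiment 2 only, and Kat8, Sirt3, Setd7 and Kmt5c passed q under 0.05 in every alternative in which the F test was refitted. Depth is unknown, so small differences of weakly expressed genes could not be judged by counts.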

Other observations

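The sexes differed for 2 of the 81 genes, both X-linked demethylases in mammals that are known in other species to escape silencing of the inactive X chromosome. This comparison was chosen after the values were seen. Kdm6a, which removes methyl groups laid by the Polycomb complex, ranged from 10.21 to 10.73 in 16 females (median 10.45) and from 9.75 to 10.33 in 13 males (median 10.05), with some overlap. The difference, male minus female, was -0.40 ± 0.054 (SE, q = 4.8e-04 in limma over all genes). Kdm5c ranged from 11.15 to 12.15 in females (median 11.61) and from 11.10 to 11.54 in males (median 11.32), a difference of -0.29 ± 0.053 (q = 0.021). For Kdm5c, q was 0.063 without the EAr animal K156 and 0.056 without the IBA animal K7. Of all genes, 28 of 12863 (0.218%) passed the same test.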
